A study of Arabidopsis thaliana with 24 samples.

Results

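Transcripts of 10 phosphate starvation response genes were followed in Arabidopsis thaliana seedlings given ATP or a mock treatment. The genes were SPX1 (AT5G20150), SPX3 (AT2G45130), PHT1;4 (AT2G38940), G3Pp1 (AT3G47420), MGD3 (AT2G11810), SQD2 (AT5G01220), NPC4 (AT3G03530), GDPD1 (AT3G02040), PS2 (AT1G73010) and AT5G20790. They were picked by locus out of 33245 gene identifiers, with the ATP response of the wild type already in view. Values of that response, and of differences from it, are therefore given as a description with no test. The further gene lists were also chosen with earlier results of these data known. Counts of calls in them, and among the members, carry that limit. Polyadenylated RNA of whole seedlings was sequenced in 24 libraries, 3 in each of 8 groups. The groups were the double mutant p2k1-3 bdg-8, the single mutants bdg-8 and p2k1-3, and the wild type Col-0, each with 150 µM ATP for 30 min or with mock treatment. P2K1 is the lectin receptor kinase that binds ATP outside the cell, and BDG1 is an epidermal hydrolase needed for the cuticle. How many seedlings made up a library, and whether replicates came from separate cultures, is not given in the sources used here, so the spread behind the p-values is that between these libraries and may be technical.

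Plants short of phosphate raise uptake transporters, secrete phosphatases and replace membrane phospholipids with lipids that hold no phosphorus. The transcription factor PHR1 drives much of this programme by binding a short promoter element known as P1BS. In cells with ample phosphate, SPX proteins bind inositol pyrophosphates and hold PHR1 away from DNA, and SPX1 and SPX3 are themselves induced when phosphate runs low. Levels of such transcripts are widely used as a readout of phosphate status in seedlings.

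Upstream sequence was read for all 10 genes, and 4 are shown because they span the range of what the transcripts did. GDPD1 fell with ATP in each mutant, PS2 rose with ATP in both genotypes that carry bdg-8, NPC4 was called with ATP in no mutant, and AT5G20790 had the lowest log2 value with ATP in the double mutant. Each sequence is the 250 bases before the annotated gene start in RefSeq's TAIR10.1 assembly, 5′ to 3′ on the gene's own strand, which is the minus strand for all 4. Capitals mark matches to the P1BS element, spelled GNATATNC, which is its own reverse complement and so was searched once for both strands.
GDPD1, chr3:350011-350260: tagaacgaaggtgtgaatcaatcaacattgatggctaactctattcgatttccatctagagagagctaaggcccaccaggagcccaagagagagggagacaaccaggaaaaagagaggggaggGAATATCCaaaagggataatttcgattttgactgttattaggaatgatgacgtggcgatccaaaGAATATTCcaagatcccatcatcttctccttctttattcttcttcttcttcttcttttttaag
PS2, chr1:27466349-27466598: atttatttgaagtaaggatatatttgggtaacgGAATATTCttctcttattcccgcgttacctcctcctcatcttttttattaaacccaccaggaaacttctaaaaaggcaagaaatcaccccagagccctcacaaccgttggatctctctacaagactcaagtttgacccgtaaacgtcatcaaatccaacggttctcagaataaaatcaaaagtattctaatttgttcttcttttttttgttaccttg
NPC4, chr3:845097-845346: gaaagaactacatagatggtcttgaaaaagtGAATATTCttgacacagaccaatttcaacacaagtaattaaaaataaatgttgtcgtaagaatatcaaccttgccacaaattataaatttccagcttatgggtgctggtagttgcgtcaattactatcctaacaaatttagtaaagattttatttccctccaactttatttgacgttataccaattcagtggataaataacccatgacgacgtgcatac
AT5G20790, chr5:7040920-7041169: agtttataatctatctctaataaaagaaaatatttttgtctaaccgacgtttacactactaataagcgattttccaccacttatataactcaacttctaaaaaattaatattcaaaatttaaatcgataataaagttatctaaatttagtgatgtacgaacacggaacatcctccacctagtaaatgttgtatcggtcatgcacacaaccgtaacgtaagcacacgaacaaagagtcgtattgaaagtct

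A match lay within these 250 bases in 4 of the 10 genes. GDPD1 had 2 matches, SPX3 had 2, and NPC4 and PS2 had 1 each. Among all 27443 protein-coding genes, 5.46% had a match in the same window. Over 1000 bases, 6 of the 10 genes had a match, against 20.3% of protein-coding genes, with SPX1 and SQD2 added by single matches that began 735 and 340 bases upstream. No match was found in that window for PHT1;4, G3Pp1, MGD3 or AT5G20790. The genes were known beforehand as phosphate-responsive, so these shares describe the choice of genes. A match is not a measured binding site, and no match says only that these letters are not in the window.

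Libraries held 25856588 to 35239775 counts in genes. Levels are given as CPM, counts scaled to library size, after scaling by TMM factors, and log2 differences as estimate ± SE from 1 edgeR model of all 24 libraries. Calls are at a Benjamini-Hochberg adjusted p under 0.05 over the 20995 genes that passed the filter on low counts, as all 10 members did. P2K1 transcript was 10.6 ± 0.478 CPM in the double mutant and 12.1 ± 0.927 CPM in p2k1-3, against 21.4 ± 0.821 CPM in Col-0 (SD, n = 3 each, mock). BDG1 transcript was 14.2 ± 1.77 CPM in bdg-8, against 25.4 ± 0.451 CPM in Col-0 (SD, n = 3 each, mock). With ATP, BDG1 transcript was instead higher where bdg-8 was present, at 112 ± 2.28 CPM in the double mutant and 107 ± 9.87 CPM in bdg-8, against 24.7 ± 0.716 CPM in p2k1-3 and 26.0 ± 1.76 CPM in Col-0 (SD, n = 3 each). The log2 change of BDG1 with ATP was 2.87 ± 0.07 in the double mutant (edgeR adjusted p = 1.4e-20) and 2.91 ± 0.07 in bdg-8 (edgeR adjusted p = 1.0e-20). A lower BDG1 level thus went with the bdg-8 label under mock treatment and not with ATP. Gene totals do not locate reads within BDG1, so they are no check of lost function, and the groups are named by their labels. Within each group, the replicate 3 library lay between the other two for 40.2 to 51% of tested genes, whereas replicates 1 and 2 were the middle library for 23.9 to 30.1%. For the members this was so in 50 of 80 combinations of gene and group. What lies behind it was not tested. Whether replicate 3 is an independent library in each group is not shown by these files, so every SD and p-value at n = 3 may rest on fewer independent libraries. Counts of called members are given again without replicate 3. Those refits hold fewer libraries per group, and shares of all genes called in them are not given beside the counts. Dependence on replicate 3 and lower power cannot be told apart from such counts.

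The members spanned a wide range of levels. Per kilobase of exon, SPX1 had the highest level in mock-treated Col-0 at 31.5 ± 3.7 CPM per kb, followed by SQD2 at 27.0 ± 1.54 and G3Pp1 at 16.1 ± 0.767 (SD, n = 3). GDPD1, PHT1;4 and AT5G20790 followed at 13.5 ± 1.7, 12.1 ± 1.01 and 11.3 ± 1.15 CPM per kb, and these 3 did not separate beyond their spread. The ranges of mean ± SD of SPX1 and SQD2 also met. PS2 at 5.3 ± 2.12 and MGD3 at 3.75 ± 0.79 CPM per kb overlapped, and NPC4 had 1.78 ± 0.344. SPX3 was lowest at 0.414 ± 0.0769 CPM per kb. It had 1 to 14 counts in any library, and its log2 changes with ATP carried an SE of 0.39 to 0.52.

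**Figure D1:**
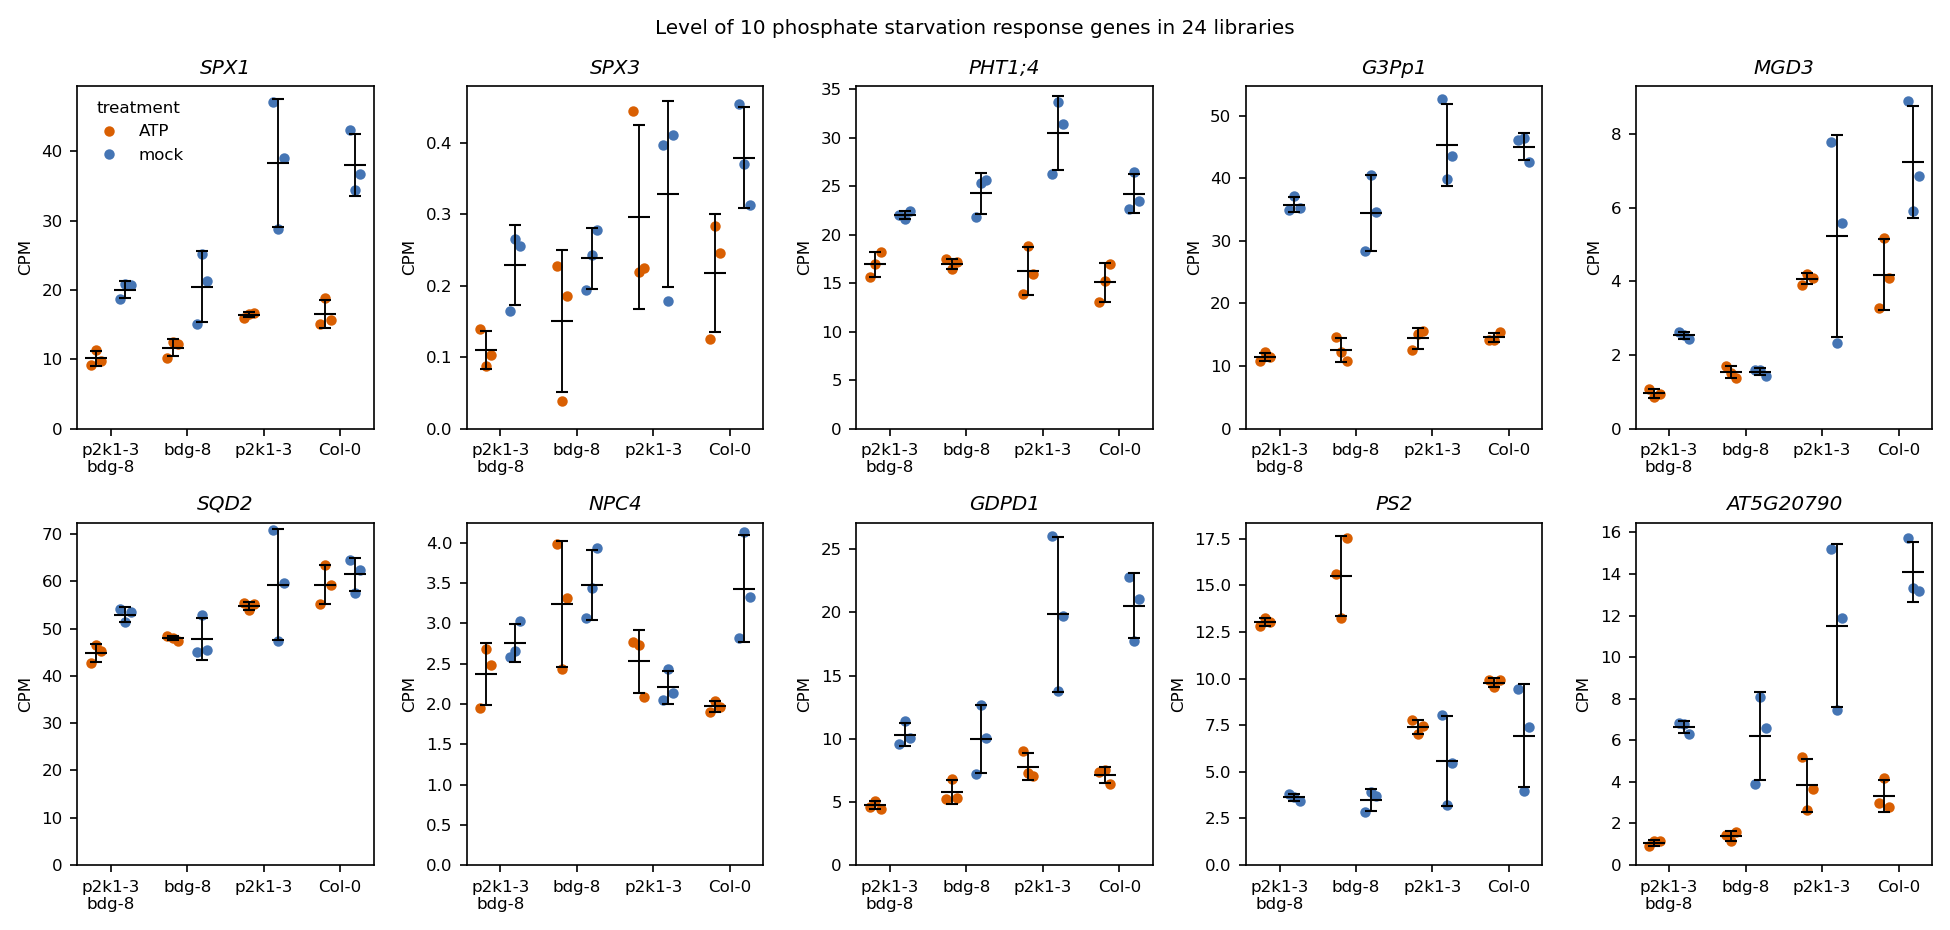
Level of each member in CPM (vertical axes, linear from 0) by genotype, with ATP libraries in orange left of mock libraries in blue. Points are single libraries, horizontal lines are means and bars are SD over 3 libraries. For SPX1, PHT1;4, G3Pp1, GDPD1 and AT5G20790 every ATP library sits below every mock library of its genotype. PS2 sits higher with ATP in both genotypes that carry bdg-8.

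A set of 5 transcripts fell with ATP in each of the 3 mutants and had values below 0 in Col-0. They were the regulator SPX1, the plasma membrane phosphate transporter PHT1;4, the glycerol-3-phosphate permease G3Pp1, the glycerophosphodiester phosphodiesterase GDPD1 and AT5G20790. With ATP in the double mutant, 7 of the 10 members fell (16.5% of all genes fell) and 1 rose (17.1% of all genes rose). In bdg-8, 5 fell (17.7% of all genes) and 1 rose (18.7% of all genes), and in p2k1-3 5 fell (8.53% of all genes) and none rose by edgeR or DESeq2 (11.9% of all genes rose by edgeR), nor did any have a rise at an unadjusted p under 0.05. Without replicate 3, 4 members fell and 1 rose in the double mutant, 4 fell and 1 rose in bdg-8, and 5 fell in p2k1-3. The median log2 change over the 10 members was -1.01 in the double mutant, -0.56 in bdg-8, -0.64 in p2k1-3 and -0.79 in Col-0. The median over all tested genes was between -0.02 and -0.01 in each.

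SPX1 had 9.22, 11.3 and 9.78 CPM with ATP in the double mutant, against 18.6, 20.8 and 20.7 CPM with mock. In bdg-8 it had 10.2, 12.5 and 12.2 CPM with ATP, against 15.1, 25.1 and 21.2 CPM with mock. All ATP libraries lay below all mock libraries in both genotypes. SPX1 fell by 0.98 ± 0.17 on the log2 scale in the double mutant (1.97-fold lower, edgeR adjusted p = 4.6e-05) and by 0.82 ± 0.17 in bdg-8 (1.76-fold lower, edgeR adjusted p = 0.00035). In p2k1-3 it had 16.0, 16.5 and 16.7 CPM with ATP, against 47.1, 28.7 and 39.0 CPM with mock. The 3 ATP libraries were close together, while the mock libraries of p2k1-3 were widely spread. The fall in p2k1-3 was 2.34-fold (log2 -1.23 ± 0.15, edgeR adjusted p = 8.2e-07). In Col-0 the levels were 15.0, 18.8 and 15.7 CPM with ATP, against 43.0, 34.4 and 36.7 CPM with mock, a log2 difference of -1.20 ± 0.15. SPX3, which belongs to the same family of PHR1 inhibitors, had log2 values of -1.03 ± 0.52 in the double mutant, -0.61 ± 0.49 in bdg-8, -0.18 ± 0.39 in p2k1-3 and -0.79 ± 0.40 in Col-0, and was called in no mutant.

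G3Pp1 had the most even fall across genotypes. Its level was 10.9, 12.2 and 11.4 CPM with ATP in the double mutant, against 34.9, 37.2 and 35.3 CPM with mock. In bdg-8 it was 14.6, 12.3 and 10.8 CPM with ATP, against 28.4, 40.5 and 34.6 CPM with mock. Groups did not overlap in either genotype, and the falls were 3.11-fold (log2 -1.64 ± 0.12, edgeR adjusted p = 3.0e-11) and 2.73-fold (log2 -1.45 ± 0.12, edgeR adjusted p = 2.8e-10). In p2k1-3 it was 12.5, 15.2 and 15.7 CPM with ATP, against 52.6, 39.8 and 43.5 CPM with mock (log2 -1.65 ± 0.11, edgeR adjusted p = 3.9e-11). In Col-0 G3Pp1 was 14.1, 14.2 and 15.5 CPM with ATP, against 46.1, 46.5 and 42.6 CPM with mock, a log2 difference of -1.63 ± 0.11.

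The second transporter, PHT1;4, fell less. It had 15.6, 17.0 and 18.2 CPM with ATP in the double mutant, against 22.0, 21.6 and 22.4 CPM with mock (log2 -0.38 ± 0.10, edgeR adjusted p = 0.0052). In bdg-8 it had 17.5, 16.5 and 17.1 CPM with ATP, against 21.9, 25.3 and 25.6 CPM with mock (log2 -0.51 ± 0.10, edgeR adjusted p = 0.0003). Mean levels with ATP were between 15.1 and 17 CPM in the 4 genotypes, and p2k1-3 had the highest mean mock level. There PHT1;4 had 13.9, 18.8 and 16.0 CPM with ATP, against 26.3, 33.7 and 31.5 CPM with mock (log2 -0.91 ± 0.10, edgeR adjusted p = 1.4e-07). The Col-0 value was -0.69 ± 0.10. Without replicate 3 the call in the double mutant was lost (log2 -0.42, edgeR adjusted p = 0.062).

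GDPD1, which cleaves the glycerophosphodiesters left when phospholipids lose their fatty acids, had 4.63, 5.08 and 4.48 CPM with ATP in the double mutant, against 9.57, 11.4 and 10.1 CPM with mock. In bdg-8 it had 5.19, 6.84 and 5.32 CPM with ATP, against 7.2, 12.6 and 10.1 CPM with mock. The groups stood apart in both, and the falls were 2.17-fold (log2 -1.12 ± 0.21, edgeR adjusted p = 0.00013) and 1.73-fold (log2 -0.79 ± 0.21, edgeR adjusted p = 0.0037). In p2k1-3 GDPD1 had 9.03, 7.32 and 7.05 CPM with ATP, against 26.0, 13.8 and 19.7 CPM with mock (log2 -1.35 ± 0.18, edgeR adjusted p = 3.2e-06). The Col-0 value was -1.53 ± 0.18. GDPD1 overlaps AT3G02030 on the opposite strand by 681 bases in RefSeq's annotation, and whether reads were counted by strand is not given in the sources used here. AT3G02030 had log2 values between -0.11 and 0 with ATP, none of them called in a mutant. Without replicate 3 the GDPD1 call in bdg-8 was lost (log2 -0.72, edgeR adjusted p = 0.118).

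AT5G20790 is known as a gene induced by phosphate starvation and is named here by its locus. Its level in the double mutant was 0.905, 1.14 and 1.17 CPM with ATP, against 6.81, 6.79 and 6.32 CPM with mock, a 6.15-fold fall (log2 -2.62 ± 0.31, edgeR adjusted p = 2.5e-07). In bdg-8 it had 1.43, 1.14 and 1.6 CPM with ATP, against 3.91, 8.1 and 6.61 CPM with mock, a 4.42-fold fall (log2 -2.15 ± 0.31, edgeR adjusted p = 3.6e-06). No ATP library reached a mock library in either genotype. In p2k1-3 it had 5.2, 2.66 and 3.65 CPM with ATP, against 15.2, 7.43 and 11.9 CPM with mock, a 3-fold fall (log2 -1.59 ± 0.24, edgeR adjusted p = 1.4e-05). In Col-0 it had 2.97, 4.18 and 2.77 CPM with ATP, against 15.7, 13.3 and 13.2 CPM with mock, a log2 difference of -2.08 ± 0.24.

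The lipid enzymes gave a mixed picture. MGD3, a galactolipid synthase of the starvation response, had 1.08, 0.847 and 0.929 CPM with ATP in the double mutant, against 2.62, 2.54 and 2.43 CPM with mock. This was a 2.66-fold fall (log2 -1.41 ± 0.35, edgeR adjusted p = 0.0023), with a call lost without replicate 3 (log2 -1.43, edgeR adjusted p = 0.0696). In bdg-8, MGD3 stood at 1.69, 1.52 and 1.38 CPM with ATP, against 1.58, 1.6 and 1.43 CPM with mock, so the groups overlapped throughout. In p2k1-3 it had 3.9, 4.19 and 4.1 CPM with ATP, against 7.79, 2.32 and 5.57 CPM with mock. The mock library of replicate 2 fell below all ATP libraries there, and the log2 value of -0.38 ± 0.24 was not called (edgeR adjusted p = 0.30). Leaving out that 1 library gave -0.71 and a call (edgeR adjusted p = 0.00316). SQD2, which completes sulfolipid synthesis, was 42.8, 46.5 and 45.2 CPM with ATP in the double mutant, against 54.1, 51.3 and 53.4 CPM with mock (log2 -0.24 ± 0.09, edgeR adjusted p = 0.041). That call was lost without any one of 5 of these 6 libraries (all but ATP replicate 2), with edgeR adjusted p of 0.0525 to 0.14. Leaving out the same p2k1-3 mock library also gave SQD2 a call with ATP in p2k1-3 (log2 -0.25, edgeR adjusted p = 0.0138). The phospholipase C gene NPC4 had log2 values of -0.21 ± 0.17 in the double mutant, -0.09 ± 0.16 in bdg-8 and 0.20 ± 0.18 in p2k1-3, none of them called, and -0.79 ± 0.17 in Col-0.

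PS2, a pyrophosphatase gene of the same programme, went the other way. It had 12.8, 13.2 and 13 CPM with ATP in the double mutant, against 3.83, 3.64 and 3.45 CPM with mock, a 3.58-fold rise (log2 1.84 ± 0.23, edgeR adjusted p = 4.1e-07). In bdg-8 it had 15.6, 13.3 and 17.6 CPM with ATP, against 2.84, 3.89 and 3.72 CPM with mock, a 4.45-fold rise (log2 2.16 ± 0.23, edgeR adjusted p = 2.5e-08). The groups stood far apart in both. In p2k1-3 PS2 had 7.77, 7.03 and 7.46 CPM with ATP, against 8.02, 3.22 and 5.48 CPM with mock, and the log2 value of 0.40 ± 0.23 was not called (edgeR adjusted p = 0.23). The mock replicate 1 library alone exceeded the ATP libraries there, and without it the value was 0.75 with a call (edgeR adjusted p = 0.0234). In Col-0 it had 9.9, 9.52 and 9.94 CPM with ATP, against 9.45, 3.96 and 7.4 CPM with mock, a log2 difference of 0.49 ± 0.21.

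**Figure D2:**
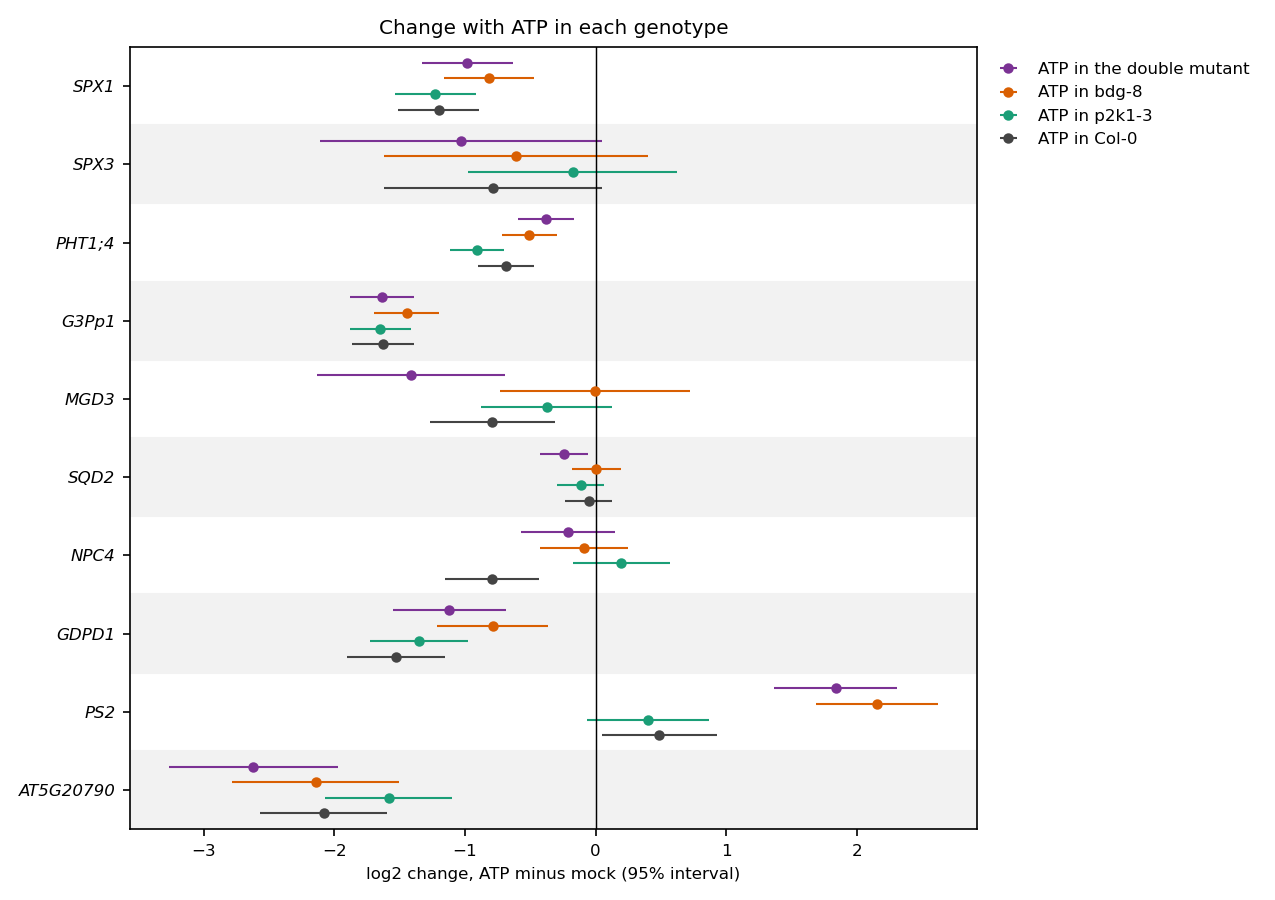
Log2 change with ATP (horizontal axis, ATP minus mock) of each member in the double mutant, bdg-8, p2k1-3 and Col-0, from top to bottom within a gene. Points are estimates of the edgeR model and bars are 95% intervals. G3Pp1 lies between -1.65 and -1.45 in all 4 genotypes, whereas PS2 is at 1.84 and 2.16 in the genotypes with bdg-8, and at 0.40 in p2k1-3 and 0.49 in Col-0.

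Counted without a model, all 3 ATP libraries lay below all 3 mock libraries for 8 of the 10 members in the double mutant, 5 in bdg-8 and 5 in p2k1-3. Over all tested genes that share was 23.2% in the double mutant, 23.2% in bdg-8 and 19% in p2k1-3. All ATP libraries lay above all mock libraries for 1 member in the double mutant (21.1% of all genes), 1 in bdg-8 (22%) and none in p2k1-3 (18.4%). By edgeR calls, 16.5% of all genes fell with ATP and 17.1% rose in the double mutant. Those shares were 17.7% and 18.7% in bdg-8, and 8.53% and 11.9% in p2k1-3. Counts of 1 or 2 in the short lists below do not set a list apart from them. Markers of root hairs also moved with ATP, with 4 of 7 falling in the double mutant and 4 of 7 in p2k1-3. Their summed level was 106 to 127 CPM with ATP against 130 to 151 CPM with mock in the double mutant, and 82.9 to 108 CPM with ATP against 112 to 121 CPM with mock in p2k1-3. In bdg-8 none of the 7 was called by edgeR (1 at an unadjusted p under 0.05), and the summed level was 138 to 158 CPM with ATP against 134 to 173 CPM with mock. No root hair marker was at 0 in any library. Of 7 root endodermis markers, 2 fell in the double mutant, with summed levels of 19.5 to 22.1 CPM with ATP against 23.9 to 25.9 CPM with mock. In p2k1-3, 2 fell as well, with 22.0 to 23.4 CPM with ATP against 26.9 to 29.3 CPM with mock. In bdg-8, 1 fell and 1 rose, with 27.1 to 32.4 CPM with ATP against 28.5 to 29.1 CPM with mock. Of 8 green tissue markers, 2 fell in the double mutant, with sums of 27927 to 32865 CPM with ATP against 31175 to 35249 CPM with mock. In bdg-8, 1 green marker fell, with sums of 33249.8 to 36820.5 CPM with ATP against 28649.7 to 37844 CPM with mock. In p2k1-3 none was called by edgeR (2 at an unadjusted p under 0.05). The 8 log2 values there were 0.06 to 0.22, and the sums did not overlap. They were 44213 to 45354.1 CPM with ATP against 37243.4 to 42380.5 CPM with mock, so higher with ATP. Of 8 iron deficiency genes, 1 fell and 1 rose in the double mutant, and 1 fell and 1 rose in bdg-8. In p2k1-3, 5 rose (BHLH38, BHLH39, BHLH100, BHLH101 and IMA1), and the median log2 change over the 8 was 2.95. In Col-0 the same 5 had log2 values of 0.83 to 2.47. Mock levels in p2k1-3 were near the floor for some, with BHLH38 at 1 to 3 counts and BHLH101 at 1 to 5. In both genotypes with bdg-8, BHLH38, BHLH100 and BHLH101 had 0 to 4 counts in any library, with ATP or mock, so a change there could hardly be called. Of 8 sulfate genes, SULTR1;1, APR1, APR2, APR3 and LSU2 fell in the double mutant, and SULTR1;2, APR1, APR2, APR3 and SDI1 in bdg-8. In p2k1-3 only APR1 fell, and no sulfate gene rose in a mutant. Of 5 nitrate genes, NRT1.1 fell and NIA2 rose in each mutant. NIA1 rose in the double mutant and bdg-8 and fell in p2k1-3. The part of these lists in the members' change was not tested, and in whole seedlings fewer cells of a type and less RNA per cell cannot be told apart.

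Whether genotypes differed in their response to ATP was asked next. Of the 10 members, 2 had a different response in the double mutant than in p2k1-3 (16.2% of all genes did, so the count is near that share). PS2 was higher by 1.43 ± 0.32 on the log2 scale (95% interval 0.76 to 2.11, edgeR adjusted p = 0.00257), and PHT1;4 by 0.53 ± 0.14 (0.23 to 0.83, edgeR adjusted p = 0.0112), which for PHT1;4 is a smaller fall. Without replicate 3 neither was called by edgeR, with PS2 at 1.41 (edgeR adjusted p = 0.161) and PHT1;4 at 0.45 (edgeR adjusted p = 0.286). Without p2k1-3 mock replicate 1, MGD3 (-1.42, edgeR adjusted p = 0.00881) and AT5G20790 (-1.28, edgeR adjusted p = 0.0257) were called as well, making 4. With all libraries they were -1.04 ± 0.43 and -1.04 ± 0.41. AT5G20790 was also called without p2k1-3 ATP replicate 2 (-1.24, edgeR adjusted p = 0.0485).

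Between the double mutant and bdg-8, none of the 10 was called by edgeR or by DESeq2 (0.638% of all genes were by edgeR), and 1 had an unadjusted p under 0.05. That was MGD3, at -1.41 ± 0.50 (edgeR adjusted p = 0.24), chosen here after its value was seen. It was called without p2k1-3 mock replicate 2 (-1.41, edgeR adjusted p = 0.0391), a library outside the comparison that enters the shared estimate of spread. MGD3 was also called by edgeR when only the groups compared were fitted. For SPX1 the difference was -0.16 with a 95% interval of -0.66 to 0.33, and for G3Pp1 it was -0.19 with an interval of -0.54 to 0.16.

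The differences from Col-0 are described only. In p2k1-3 the response of SPX1 differed from that in Col-0 by -0.02 (95% interval -0.47 to 0.42), of G3Pp1 by -0.02 (-0.36 to 0.31) and of GDPD1 by 0.18 (-0.36 to 0.71). The estimates for SPX1 and G3Pp1 in the receptor mutant were close to those in the wild type, and differences up to the bounds of the intervals remain possible. AT5G20790 differed by 0.50 (-0.21 to 1.21) and NPC4 by 0.99 (0.47 to 1.51). In bdg-8 the response of PS2 was 1.67 above that in Col-0 (1.02 to 2.32), that of GDPD1 0.74 above (0.17 to 1.32) and that of NPC4 0.71 above (0.21 to 1.20). The median difference over the 10 members was 0.08 for p2k1-3 and 0.28 for bdg-8.

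Most members were lower with the bdg-8 mutation in the absence of ATP. In bdg-8, 7 of the 10 were lower than in Col-0 and none was higher by edgeR or DESeq2, nor at an unadjusted p under 0.05 (18.5% of all genes were lower and 18% higher by edgeR). The comparison uses the mock-treated Col-0 libraries that also entered the contrast in view when the genes were picked. In the double mutant, 6 of the 10 were lower than in p2k1-3 and again none was higher by either tool (16.1% of all genes were lower and 15.1% higher by edgeR), nor did any have a rise at an unadjusted p under 0.05. These libraries are not in the Col-0 contrast. Without replicate 3 the counts were 4 lower in bdg-8 and 2 lower in the double mutant. The calls that remained there were SPX1, GDPD1, AT5G20790 and MGD3 in bdg-8, and SPX1 and GDPD1 in the double mutant. The median of the members was -0.78 in bdg-8 against Col-0 and -0.59 in the double mutant against p2k1-3, while the median over all tested genes was 0.00 in both.

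The mock libraries given above show SPX1 at 15.1 to 25.1 CPM in bdg-8, against 34.4 to 43.0 CPM in Col-0, with no overlap. SPX1 was lower by -0.90 ± 0.15 on the log2 scale (edgeR adjusted p = 5.1e-05), and the double mutant differed from p2k1-3 by -0.94 ± 0.15 (edgeR adjusted p = 3.8e-05). GDPD1 was lower by -1.05 ± 0.18 in bdg-8 (edgeR adjusted p = 6.4e-05) and by -0.95 ± 0.17 in the double mutant (edgeR adjusted p = 0.00022). AT3G02030, which overlaps it, was also lower, by -0.23 ± 0.08 in bdg-8 (edgeR adjusted p = 0.0245) and by -0.27 ± 0.08 in the double mutant (edgeR adjusted p = 0.0124). AT5G20790 was lower by -1.19 ± 0.22 in bdg-8 (edgeR adjusted p = 0.00017) and by -0.80 ± 0.22 in the double mutant (edgeR adjusted p = 0.0069). The mean mock levels of SPX1, GDPD1 and AT5G20790 in the genotypes with bdg-8 lay between the mean ATP and mock levels of the genotypes without it.

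MGD3 showed the lowest value of the 10 in bdg-8. It had 1.58, 1.6 and 1.43 CPM in bdg-8, against 8.9, 5.92 and 6.87 CPM in Col-0, a 4.7-fold difference (log2 -2.23 ± 0.27, edgeR adjusted p = 1.5e-06). MGD3 in the double mutant stood at 2.62, 2.54 and 2.43 CPM, against 7.79, 2.32 and 5.57 CPM in p2k1-3 (log2 -1.06 ± 0.26, edgeR adjusted p = 0.0032). The p2k1-3 replicate 2 library overlapped the double mutant here. PS2 was lower by -1.01 ± 0.25 in bdg-8 against Col-0 (edgeR adjusted p = 0.0027), a call that was lost without replicate 3 (log2 -1.01, edgeR adjusted p = 0.0978) and without replicate 1 of every group (log2 -0.60, edgeR adjusted p = 0.0618). The PS2 value of -0.62 ± 0.25 in the double mutant was not called (edgeR adjusted p = 0.063), but it was without p2k1-3 mock replicate 2 (log2 -0.88, edgeR adjusted p = 0.00529) or without Col-0 mock replicate 1 or 2 (edgeR adjusted p = 0.0419 and 0.0242). PS2 thus stood lower than in Col-0 in bdg-8 with mock treatment, and its level was higher with ATP in the same genotype.

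Smaller differences were seen for the rest. G3Pp1 was lower by -0.39 ± 0.10 in bdg-8 (edgeR adjusted p = 0.0054) and by -0.34 ± 0.10 in the double mutant (edgeR adjusted p = 0.014). The first call was lost without bdg-8 mock replicate 1 (log2 -0.26, edgeR adjusted p = 0.0631), and the second without p2k1-3 mock replicate 1 (log2 -0.22, edgeR adjusted p = 0.131) or without double mutant mock replicate 1 (log2 -0.32, edgeR adjusted p = 0.0538). The AT5G20790 call in the double mutant was also lost without p2k1-3 mock replicate 1 (log2 -0.56, edgeR adjusted p = 0.0727). SQD2 was lower in bdg-8 (log2 -0.36 ± 0.09, edgeR adjusted p = 0.0025), and PHT1;4 was lower in the double mutant (log2 -0.47 ± 0.10, edgeR adjusted p = 0.00074) while its value in bdg-8 was 0.00 ± 0.10 (95% interval -0.20 to 0.20). SQD2 was called in the double mutant only when p2k1-3 mock replicate 2 was left out (log2 -0.30, edgeR adjusted p = 0.00268) or all libraries of replicate 2 (log2 -0.28, edgeR adjusted p = 0.00249). NPC4 and SPX3 were called in neither comparison.

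Other transcripts moved in the same mock comparisons. Of all genes, 18.5% were lower and 18% higher in bdg-8 than in Col-0. In the double mutant against p2k1-3 these shares were 16.1% and 15.1%. All 8 green tissue markers were lower in bdg-8 than in Col-0, with a median log2 difference of -0.39 and a summed level of 28650 to 37844 CPM in bdg-8, against 42600 to 46075 CPM in Col-0. Root hair markers had 2 of 7 higher, with sums of 134 to 173 CPM in bdg-8 and 107 to 142 CPM in Col-0. Of 7 root endodermis markers, 1 was lower, with sums of 28.5 to 29.1 CPM in bdg-8 and 26.7 to 33.9 CPM in Col-0. Of 8 iron deficiency genes, 7 were lower in bdg-8, with a median of -2.83. Some of them were near the floor, with BHLH38 and BHLH100 at 0 to 2 counts and BHLH101 at 0 to 1 in bdg-8 mock libraries. BHLH100 and BHLH101 had 0 counts in every mock library of the double mutant. In the double mutant against p2k1-3, 4 of 8 green markers and 3 of 8 iron genes were lower, the iron genes with a median of -1.58. There, 3 of 7 root hair markers were higher, with sums of 130 to 151 CPM in the double mutant and 112 to 121 CPM in p2k1-3. Of the endodermis markers 3 of 7 were lower, with sums of 23.9 to 25.9 CPM in the double mutant and 26.9 to 29.3 CPM in p2k1-3. No marker of green tissue or root hairs was at 0 in any library, and CASP5 of the endodermis list was at 0 in at least 1 library each of the double mutant's ATP and mock groups. Of 8 sulfate genes, APR1, SDI1, LSU1 and LSU2 were higher and APR2 and APR3 lower in bdg-8. In the double mutant against p2k1-3, SULTR1;2, APR1, APR2, SDI1 and LSU2 were higher and none was lower. Of the nitrate genes, NRT1.1 and NIR1 were higher and NIA1 and NIA2 lower in both comparisons, with NRT2.1 also higher in the double mutant. The part of these lists in the members' differences was not tested.

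Few members differed with the p2k1-3 mutation. Of the 10, 1 was higher (3.41% of all genes) and 1 lower (1.89% of all genes) in p2k1-3 than in Col-0 with mock treatment. This comparison, too, uses the mock-treated Col-0 libraries that entered the contrast in view when the genes were picked. PHT1;4 was higher, with 26.3, 33.7 and 31.5 CPM in p2k1-3, against 22.7, 26.5 and 23.5 CPM in Col-0 (log2 0.33 ± 0.10, edgeR adjusted p = 0.045). NPC4 was lower, with 2.05, 2.43 and 2.14 CPM in p2k1-3, against 2.83, 4.14 and 3.32 CPM in Col-0 (log2 -0.64 ± 0.17, edgeR adjusted p = 0.03). The 2 groups overlapped slightly for PHT1;4 and not for NPC4. Neither was called by edgeR without replicate 3 (edgeR adjusted p = 0.615 for PHT1;4 and 0.473 for NPC4). The PHT1;4 call was also lost without Col-0 mock replicate 1 or 3, or without p2k1-3 mock replicate 2 or 3 (edgeR adjusted p of 0.149 to 0.235), and without replicate 3 of any of 5 groups outside the comparison (0.0506 to 0.0564). The NPC4 call was lost without Col-0 mock replicate 2 or 3, or without any 1 p2k1-3 mock library (edgeR adjusted p of 0.0584 to 0.177). Without p2k1-3 mock replicate 1, MGD3 was called in place of NPC4 (log2 -0.84, edgeR adjusted p = 0.0213, against -0.46 ± 0.23 with all libraries). For SPX1 the difference was 0.01 (95% interval -0.28 to 0.30) and for G3Pp1 0.01 (-0.20 to 0.22). Between the double mutant and bdg-8, none of the 10 was called by edgeR or DESeq2 (0.667% of all genes were by edgeR), and 1 had an unadjusted p under 0.05. That was MGD3 at 0.72 (0.06 to 1.38), and SPX1 stood at -0.03 (-0.35 to 0.29).

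Among 46 further genes of phosphate response, 40 passed the filter, and they moved in both directions. With ATP, 9 fell and 6 rose in the double mutant, where 16.5% of all genes fell and 17.1% rose. In bdg-8, 5 fell and 5 rose, against 17.7% and 18.7% of all genes, and in p2k1-3 7 fell and 4 rose, against 8.53% and 11.9%. Without replicate 3 these counts were 5 and 4 in the double mutant, 3 and 4 in bdg-8, and 5 and 3 in p2k1-3. PAP17, a purple acid phosphatase, fell in each mutant, with a log2 change of -1.01 ± 0.19 in the double mutant (edgeR adjusted p = 0.00017), -0.83 ± 0.19 in bdg-8 (edgeR adjusted p = 0.0012) and -1.25 ± 0.18 in p2k1-3 (edgeR adjusted p = 7.4e-06). PPCK1, the kinase of phosphoenolpyruvate carboxylase, had log2 changes of -1.38 ± 0.11 in the double mutant, -1.41 ± 0.11 in bdg-8 and -1.70 ± 0.10 in p2k1-3, with edgeR adjusted p of 7.9e-11 in the double mutant, 8.0e-11 in bdg-8 and 4.0e-12 in p2k1-3. GDPD2, a relative of GDPD1, rose instead, with 65.7 ± 0.396 CPM with ATP against 17.2 ± 1.19 CPM with mock in the double mutant, and 78.3 ± 2.21 CPM with ATP against 16.2 ± 0.816 CPM with mock in bdg-8 (SD, n = 3 each). Its log2 rise was 1.94 ± 0.07 in the double mutant (edgeR adjusted p = 5.6e-17), 2.27 ± 0.07 in bdg-8 (edgeR adjusted p = 2.1e-18) and 1.69 ± 0.07 in p2k1-3 (edgeR adjusted p = 4.1e-15). The zinc finger gene ZAT6 rose by 2.0 ± 0.18 in the double mutant (edgeR adjusted p = 2.7e-09), 1.58 ± 0.18 in bdg-8 (edgeR adjusted p = 8.2e-08) and 0.97 ± 0.18 in p2k1-3 (edgeR adjusted p = 0.00018).

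Regulators and the RNAs that sequester miR399 moved in differing directions with ATP, and several were called in some mutants only. With ATP, SPX2 fell by -0.33 ± 0.08 in the double mutant and -0.29 ± 0.08 in bdg-8 and had -0.19 ± 0.08 in p2k1-3, and PHR1 stood between -0.14 and -0.10 in the 3 mutants, with calls in the double mutant and bdg-8. The target mimics IPS1 (-1.40 ± 0.33, edgeR adjusted p = 0.0017) and AT4 (-0.46 ± 0.13, edgeR adjusted p = 0.0088) fell with ATP in the double mutant and were not called in bdg-8 or p2k1-3. GDPD3 fell in p2k1-3 (-1.25 ± 0.37, edgeR adjusted p = 0.017), at a level under 1 CPM. PLDZ2, a phospholipase D of the starvation response, fell in the double mutant (-0.43 ± 0.14, edgeR adjusted p = 0.022), as did SQD1, the enzyme before SQD2 (-0.31 ± 0.09, edgeR adjusted p = 0.0067), and PHO1, which loads phosphate into the xylem, rose there (0.19 ± 0.07, edgeR adjusted p = 0.032). PHL1, SPX4, PHT1;1, MGD2 and PECP1 were called with ATP in no mutant. The ubiquitin ligase gene NLA rose in each mutant, from 0.33 to 0.53, and PHO2 fell in p2k1-3 (-0.16 ± 0.05). NPC5 did not pass the filter.

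Without ATP, 9 of the 40 were lower and 10 higher in bdg-8 than in Col-0, where 18.5% of all genes were lower and 18% higher. In the double mutant against p2k1-3, 7 were lower and 10 higher, where 16.1% of all genes were lower and 15.1% higher. Without replicate 3 the counts were 1 lower and 3 higher in bdg-8, and none lower and 2 higher in the double mutant. Of 9 genes of lipid remodelling, 6 were lower in bdg-8 and none was higher, and without replicate 3 the 1 that was lower was MGD2. Among them were MGD2 (-1.01 ± 0.17, edgeR adjusted p = 6.4e-05), PLDZ2 (-0.45 ± 0.14, edgeR adjusted p = 0.013) and SQD1 (-0.26 ± 0.09, edgeR adjusted p = 0.02), beside the members MGD3 and SQD2. PECP1, a phosphatase that acts on phosphoethanolamine and phosphocholine, was lower by -1.78 ± 0.44 (edgeR adjusted p = 0.003) at a level under 1 CPM, and PAP17 by -0.72 ± 0.17 (edgeR adjusted p = 0.0018). Of 10 transport genes, 4 were higher and none lower, and without replicate 3 the 2 that were higher were PHO1 and G3Pp4. PHO1 was higher by 0.49 ± 0.07 (edgeR adjusted p = 6.0e-06) and PHT1;1 by 0.36 ± 0.09 (edgeR adjusted p = 0.0035). PHT1;1 shares near-identical sequence with its neighbours PHT1;2 and PHT1;3, so reads can be lost or exchanged among them. Both miR399 mimics were higher, AT4 at 22.5 ± 0.525 CPM in bdg-8 against 14.8 ± 2.54 CPM in Col-0 (SD, n = 3 each, log2 0.61 ± 0.13, edgeR adjusted p = 0.00082) and IPS1 at 1.29 ± 0.333 CPM in bdg-8 against 0.465 ± 0.335 CPM in Col-0 (log2 1.48 ± 0.34, edgeR adjusted p = 0.0015). In the double mutant against p2k1-3, AT4 (0.61 ± 0.13, edgeR adjusted p = 0.0012), IPS1 (0.89 ± 0.31, edgeR adjusted p = 0.031), PHO1 (0.30 ± 0.07, edgeR adjusted p = 0.0012) and PHT1;1 (0.37 ± 0.09, edgeR adjusted p = 0.0032) were higher as well. MGD2 (-0.74 ± 0.18, edgeR adjusted p = 0.0024) and PAP17 (-0.68 ± 0.17, edgeR adjusted p = 0.0035) were lower there. None of these 6 was called there without replicate 3, when G3Pp4 and ALMT1 were the 2 of the 40 that were higher. In p2k1-3 against Col-0, 1 of the 40 was lower (1.89% of all genes) and 1 higher (3.41% of all genes). In the double mutant against bdg-8 none was called by edgeR or DESeq2 (4 at an unadjusted p under 0.05), where 0.667% of all genes were called by edgeR.

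Replicates of 1 group differed widely in these genes in several groups. In the p2k1-3 mock group, replicate 1 had the highest level for 7 of the 10 members and replicate 2 the lowest for 8. The highest library exceeded the lowest by a median of 1.76-fold over the members there, against 1.1-fold over tested genes of at least moderate level (mean log2 CPM of 1 or more). MGD3 had the widest gap, at 3.35-fold, followed by PS2 at 2.49-fold and SPX3, with few counts, at 2.3-fold. In the bdg-8 mock group replicate 1 was lowest for 9 of the 10 members, with a median gap of 1.4-fold. In the Col-0 mock group replicate 1 was highest for 7, with a median gap of 1.27-fold. The double mutant's mock group was tight, with a median gap of 1.1-fold, the same as over other genes. The source of the spread was not tested.

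**Figure D3:**
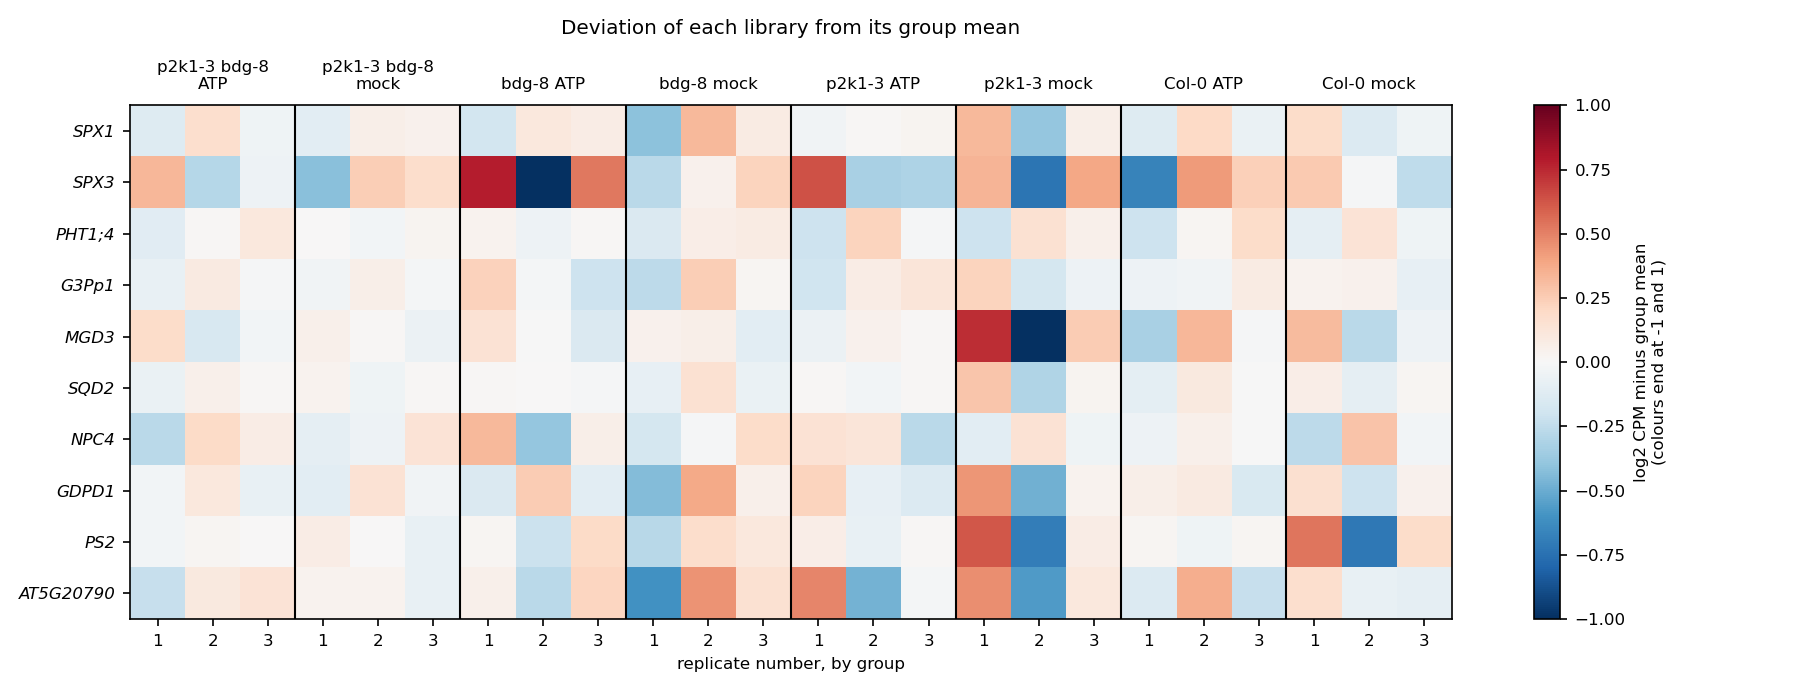
Deviation of each library from its group mean in log2 CPM (colour, red above and blue below, with colours ending at -1 and 1) for the 10 members (rows) in replicates 1 to 3 of the 8 groups (columns). In the p2k1-3 mock group most members are red in replicate 1 and blue in replicate 2, and in the bdg-8 mock group replicate 1 is blue for 9 of 10.

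The members also fell into patterns across the 8 group means. GDPD1 followed SPX1 most closely of all 20995 tested genes, with a Pearson r of 0.9948 over the 8 means, and AT5G20790 had 0.9682. SPX3 had 0.9091, G3Pp1 0.9053, PHT1;4 0.8142, MGD3 0.7862 and SQD2 0.7604. NPC4 at 0.1353 and PS2 at -0.6222 stood apart. Outside the 10 members, PAP17 was the gene most like SPX1 among those of moderate or high level (mean log2 CPM at or over 1), at 0.9899. It was followed by AT5G23680 (0.9811), AT3G58900 (0.9798), AT5G48640 (0.9793) and AT5G16870 (0.9791). The 8 means share treatment and genotype, so these values describe similar profiles and carry no test. They also include the Col-0 groups whose ATP response was in view when the members were picked, so likeness among members is partly built in.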

How the data were processed

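The labels gave 4 genotypes by ATP or mock, with 3 libraries in each of 8 groups. The authors deposited unscaled read counts for each gene, made with cutadapt 1.13, STAR 2.7.4a, HTSeq 0.13.5 and MultiQC 1.9 per the submitters' processing notes. Their settings, the build, the annotation and the strand setting are not given in the sources used here. HTSeq summary entries held 7.6 to 12.2% of each library and were left out. All 24 libraries were fitted in 1 edgeR 4.0.16 model (R 4.3.3) with TMM factors, the default filter on low counts (20995 genes left), 8 group means, 16 residual degrees of freedom and Benjamini-Hochberg adjustment over all genes tested, with calls at 0.05. The code was tested on simulated data. DESeq2 1.42.0, RLE factors, no filter, fewer groups, a replicate block and left-out libraries were tried as alternatives. The members and all gene lists were chosen with earlier results of these data known. Of the further phosphate genes, 16 regulators, transporters and enzymes were to be named in any case, and the rest where called with a log2 change of at least 1 with ATP in a mutant. Names and upstream sequences came from RefSeq's TAIR10.1, matched by locus for all 10 members. Depth limits precision for SPX3 above all.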

Additional observations from a re-analysis of the deposited data

Results flagged for a closer look

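The response to ATP differed between the double mutant and p2k1-3 for 2 of the 10 members by a test of the difference itself. Of all genes, 16.2% passed the same test, so the count alone does not set the members apart. PS2 changed more with ATP in the double mutant than in p2k1-3, by 1.43 ± 0.32 on the log2 scale (edgeR adjusted p = 0.00257), with all 3 ATP libraries above all 3 mock libraries in the double mutant and not in p2k1-3. PHT1;4 fell less in the double mutant than in p2k1-3, by a difference of 0.53 ± 0.14 (edgeR adjusted p = 0.0112). Neither was called by edgeR once replicate 3 was left out of every group.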

How the results depend on the processing

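Over DESeq2, RLE factors, no filter and fits of only the groups compared, the counts of called members were within 1.5 times of those reported, with 1 exception. The response of the double mutant against bdg-8 gave 1 called member, MGD3, in place of 0 when only those groups were fitted (log2 -1.40, edgeR adjusted p = 0.00761). Replicate numbers carried no stated batch. Deviations of same-numbered libraries had correlations of -0.136 to 0.246, with 16 of 84 pairs over 0.1. Differently numbered libraries had -0.228 to 0.146. Whether libraries of the same number shared a batch was not tested. A replicate block gave 7 in place of 6 called members in the double mutant against p2k1-3 with mock, adding PS2 (log2 -0.61, edgeR adjusted p = 0.0457), and changed no other call. No filter on low counts added PS2 to the same comparison (log2 -0.63, edgeR adjusted p = 0.0464).

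Over the settings that left out 1 library or 1 replicate number, called members with ATP ranged from 5 to 8 in the double mutant, 5 to 6 in bdg-8 and 5 to 7 in p2k1-3. With mock they ranged from 4 to 7 in bdg-8 against Col-0, 2 to 8 in the double mutant against p2k1-3, and 0 to 2 in p2k1-3 against Col-0, and were 0 in the double mutant against bdg-8. For the response to ATP they ranged from 0 to 1 in the double mutant against bdg-8 and 0 to 4 in the double mutant against p2k1-3. The median of the members with ATP in Col-0 ranged from -1.07 to -0.70. The median difference in response ranged from -0.063 to 0.337 for p2k1-3 against Col-0 and from 0.0825 to 0.711 for bdg-8 against Col-0. MGD3 in the double mutant against p2k1-3 with mock lost its call without replicate 1 of every group (log2 -0.71, edgeR adjusted p = 0.0506). No called value changed sign under these settings, and the cause of the shifts was not tested.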
